A study of Mus musculus with 15 samples.

Results

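Cholesterol synthesis in the mouse mammary gland was described here through 8 genes, of 52526 distinct gene names in the deposited tables, in BDE-47 and vehicle mice. The genes were Srebf2, Insig1, Hmgcs1, Idi1, Fdps, Sqle and Lss, which are regulators or enzymes of sterol synthesis, and Stard4, a sterol carrier. They were taken by gene name, and the set was proposed with their difference between BDE-47 and vehicle mice in these same tables already known, so that difference is given as a description with no test. Of the 8 genes, 7 were above 1 CPM (reads of the gene scaled to a fixed library total) in at least 1 mouse, and 6 were above it in at least 7 of 15 mice, the minimum for entering the fit over all genes.

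Cells make cholesterol from acetyl-CoA through the mevalonate pathway, whose early enzymes supply isoprenoids and whose later enzymes close and trim the sterol rings. When sterols in the endoplasmic reticulum run low, SCAP carries the membrane-bound factor SREBP2, the product of Srebf2, to the Golgi, where proteases release its active domain to switch on the genes of synthesis and uptake. INSIG1 and INSIG2 hold SCAP back when sterols are abundant. In mammary tissue, cholesterol is needed for the membranes of the epithelium and for milk fat, and adipocytes of the fat pad store much of it.

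All mice were athymic female nude mice (nu/nu), a host largely without T cells, carrying subcutaneous osmotic pumps implanted after 8 weeks of age. The 7 BDE-47 mice received a low dose of BDE-47, a brominated diphenyl ether flame retardant, dissolved in PEG300 with DMSO for 16 weeks, and the 8 vehicle mice received the solvents alone. The left 4th mammary tissue was taken whole, 1 library a mouse, and the labels place every mouse in 1 experiment. Some animals also carried xenografts, but which ones is not given in the labels, so xenografts were not modelled here. In whole tissue, fewer cells of a type and less RNA per cell cannot be told apart.

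The libraries held 10060000 to 19580000 reads, recovered from the steps between the deposited values, and values under 1 CPM were listed at 0. The number of genes above 1 CPM ran from 7475 to 11490 in vehicle mice and from 6932 to 12689 in BDE-47 mice, and 2.3 to 44.5% of the genes with a mean of 10 to 20 CPM were listed at 0 in a given mouse, so a listed 0 is not read as absence. All 8 adipocyte, 8 luminal and 6 myoepithelial markers were found above 1 CPM in at least 1 mouse, as the labelled tissue would hold, but 3 libraries stood apart. Vehicle 6 and vehicle 8 had 526.2 and 656.9 CPM in B cell markers, against at most 4.1 in the other vehicle mice, with adipocyte markers at 349.4 and 1035.7 CPM. BDE-47 6 had 99868.4 CPM in skeletal muscle markers and 2552.5 in adipocyte markers. The other 12 mice had 5381.3 to 21069.7 CPM in adipocyte markers.

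The start regions of members are shown because SREBP2 acts on its targets by way of sterol regulatory elements placed near the transcription start, usually beside sites for NF-Y and Sp1. Of the 8 genes, 5 matched a RefSeq promoter window of 250 bases before to 50 bases after the start (Hmgcs1, Srebf2, Insig1, Idi1 and Lss). Windows on a single chromosome were left out before the search, so a gene on it is not shown to lack one. Fdps, on chromosome 3, and Sqle, on chromosome 15, lie outside that chromosome and matched no window. Sqle, Fdps and Stard4 are named only. In the 3 windows printed here, 5′ to 3′ on the + strand of GRCm38.p6, capitals mark the letters TCACNCCAC or TCACCCCA of the sterol element, the latter chosen after the sequences were seen, and the NF-Y letters CCAAT read on the other strand as ATTGG.
Hmgcs1, chr13:119690101-119690400: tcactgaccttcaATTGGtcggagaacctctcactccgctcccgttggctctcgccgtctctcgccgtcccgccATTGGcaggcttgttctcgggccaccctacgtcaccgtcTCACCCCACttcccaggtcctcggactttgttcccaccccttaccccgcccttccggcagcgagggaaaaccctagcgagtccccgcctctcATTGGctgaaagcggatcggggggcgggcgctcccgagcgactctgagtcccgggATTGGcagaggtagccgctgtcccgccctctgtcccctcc
Srebf2, chr15:82147019-82147318: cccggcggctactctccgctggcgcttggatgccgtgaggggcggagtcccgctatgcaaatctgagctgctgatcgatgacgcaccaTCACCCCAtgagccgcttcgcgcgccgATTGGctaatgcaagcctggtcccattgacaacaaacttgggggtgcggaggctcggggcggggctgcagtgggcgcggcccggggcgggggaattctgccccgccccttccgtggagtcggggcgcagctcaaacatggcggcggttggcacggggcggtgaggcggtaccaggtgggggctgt
Insig1, chr5:28071162-28071461: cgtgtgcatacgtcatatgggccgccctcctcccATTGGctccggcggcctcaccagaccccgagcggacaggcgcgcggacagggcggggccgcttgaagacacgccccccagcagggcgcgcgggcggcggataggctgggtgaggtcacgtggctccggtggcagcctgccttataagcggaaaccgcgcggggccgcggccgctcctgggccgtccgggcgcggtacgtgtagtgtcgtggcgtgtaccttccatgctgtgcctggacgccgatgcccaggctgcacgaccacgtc

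The sterol element TCACNCCAC, searched on both strands, was present in the Hmgcs1 window, beginning at base -137 from the start, and in no other of the 5 members. It occurred in 408 of all 32851 windows searched (1.24%), and among 51 other sterol pathway genes with a window it occurred in that of Stard3. The shorter TCACCCCA, which overlaps it, lay at -137 in Hmgcs1 and at -162 in Srebf2 and was held by 511 windows (1.56%). CCAAT was found in all 5 member windows, in 34 of the 51 pathway windows (66.7%) and in 37.4% of all windows. The Hmgcs1 window carried 4 copies, at -237, -176, -45 and 11, while Srebf2 had 1 at -135 and Insig1 had 1 at -216. The GC box GGGCGG, a site for Sp1, was also in all 5 member windows, in 70.6% of pathway windows and in 35.7% of all windows. The E-box CACGTG lay at -101 in Insig1, 1 of the 5 member windows, and was held by 10 of the 51 pathway windows (19.6%) and 7.15% of all windows. A match of letters is a description of the sequence and does not show that a factor was bound.

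Across the 15 mice, the members lay at unequal levels. QuantSeq reads 1 site at the 3′ end of each transcript, so levels in log2(CPM) were compared between genes with no length scaling. Hmgcs1 was the most abundant, with a mean level of 6.03 in log2(CPM), followed by Srebf2 at 4.11, and Hmgcs1 exceeded Srebf2 in 14 of 15 mice. Lss at 2.80, Sqle at 2.62, Insig1 at 2.28 and Stard4 at 1.97 followed. These 4 neighbours in the order over all mice differed by means of 0.18 to 0.34, against standard deviations of 1.92 to 2.73 between mice, so their order was within the spread. By group the order was not the same: Stard4 came after Srebf2 in vehicle mice, with a mean of 3.16 against 2.37 for Lss, 2.26 for Insig1 and 2.11 for Sqle, and below all of these in BDE-47 mice, at 0.60 against 3.29, 2.30 and 3.21. Fdps had a mean level of 0.56 and was above 1 CPM in 5 mice, and Idi1, the isomerase that prepares the isoprenoid units, was listed at 0 in every mouse.

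**Figure D1:**
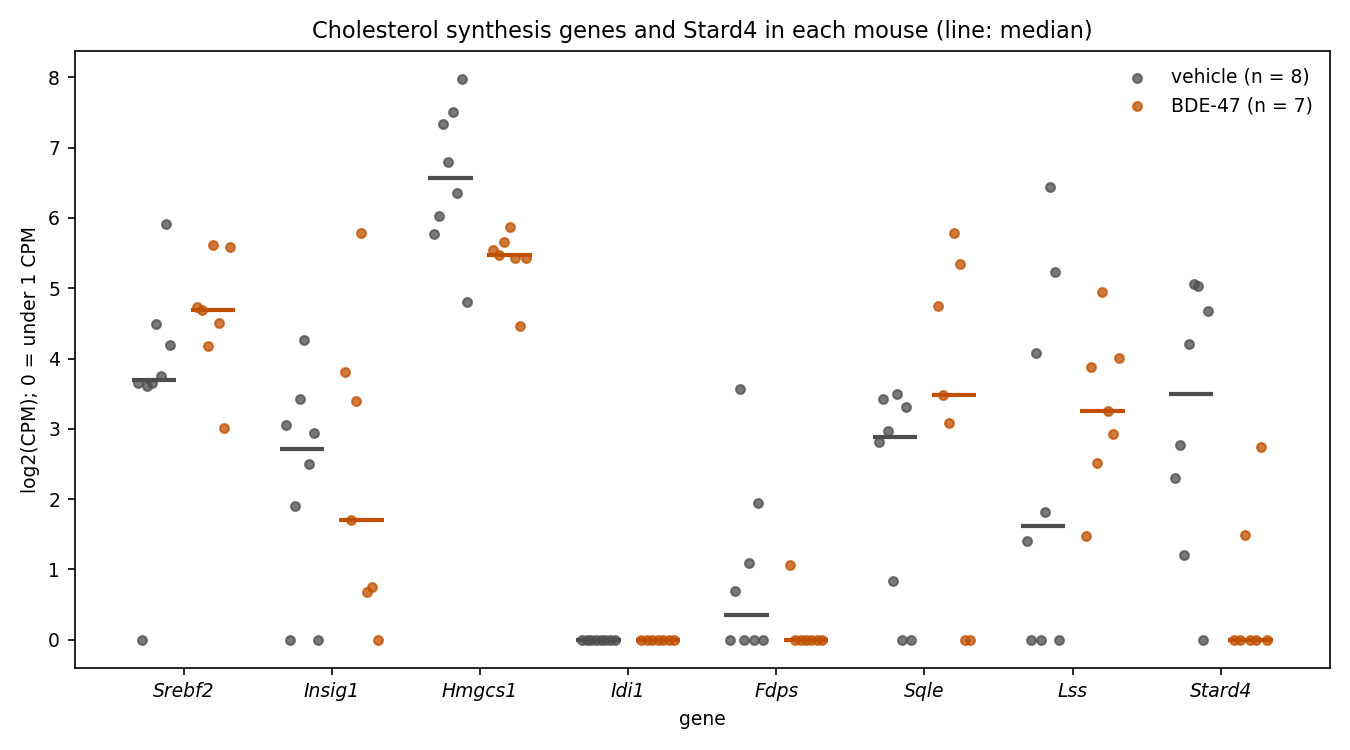
Level of each of the 8 genes in log2(CPM), 1 point per mouse, grey for 8 vehicle and orange for 7 BDE-47 mice, with the group median as a horizontal line; 0 stands for a value under 1 CPM. Hmgcs1 lay between 4.47 and 5.87 in BDE-47 mice and between 4.80 and 7.98 in vehicle mice, and 5 of 7 BDE-47 mice were listed at 0 for Stard4.

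Srebf2 encodes SREBP2 itself. Its level in log2(CPM) was lowest at 0.00, median 3.70 and highest at 5.92 in vehicle mice, and 3.01, 4.69 and 5.62 in BDE-47 mice. Vehicle 2 was the only mouse listed at 0, vehicle 7 was the highest of all 15, and the groups overlapped. The mean log2 level was higher by 0.96 (SE 0.68) in BDE-47 mice, a difference that was 0.44 without vehicle 2 and 1.33 (SE 0.83) without the 3 libraries that stood apart.

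Insig1 encodes the sterol-sensing retention protein and is itself an SREBP2 target. Its lowest, median and highest levels were 0.00, 2.72 and 4.27 in vehicle mice and 0.00, 1.70 and 5.79 in BDE-47 mice. The group values covered each other almost wholly, with BDE-47 4 alone above all vehicle mice. The difference in mean log2 level was 0.04 (SE 0.96), and it fell on either side of 0 when single mice were left out, from -0.54 without BDE-47 4 to 0.43 without BDE-47 7.

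Hmgcs1 encodes the cytosolic HMG-CoA synthase, which forms the HMG-CoA that later becomes mevalonate. It was above 1 CPM in every mouse, on 334 to 3795 reads, and is the best measured member. In vehicle mice 1 to 8 its level in log2(CPM) was 5.77, 6.03, 7.34, 6.80, 7.51, 6.35, 7.98 and 4.80, and in BDE-47 mice 1 to 7 it was 5.55, 5.47, 5.66, 5.87, 5.43, 4.47 and 5.43. Most vehicle mice, 6 of 8, were above the highest BDE-47 mouse, and all 7 BDE-47 mice were below the vehicle median. The groups overlapped through vehicle 1 and vehicle 8. The mean level was 6.57 ± 1.04 (SD, n = 8) in vehicle and 5.41 ± 0.44 (SD, n = 7) in BDE-47 mice, 2.24-fold lower with BDE-47 (log2 difference -1.16, SE 0.41).

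The lowest Hmgcs1 value of each group, in vehicle 8 and in BDE-47 6, came from a library that stood apart in its markers. Without those libraries and vehicle 6, the range was 5.77 to 7.98 in 6 vehicle mice and 5.43 to 5.87 in 6 BDE-47 mice, with 5 vehicle mice above every BDE-47 mouse and a log2 difference of -1.34 (SE 0.36). In these 12 mice the SD between mice was 0.87 in the vehicle group and 0.17 in the BDE-47 group. Adipocyte markers, summed, were also lower in BDE-47 mice, with a median of 9204.9 against 15180 CPM over all 15 mice. With group means removed, the log of that sum had r = 0.58 with Hmgcs1 over 15 mice and r = 0.30 over the 12. This was not particular to adipocytes, as myoepithelial (0.58), luminal (0.56) and B cell markers (-0.63) had like sizes of r over 15 mice. Over the 12, r was largest in size for skeletal muscle markers (-0.63) and B cell markers (-0.62, on at most 4.1 CPM). The part of tissue content in the Hmgcs1 difference was not tested.

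Fdps encodes farnesyl diphosphate synthase, which builds the last isoprenoid shared by sterols, dolichol and prenylated proteins. Vehicle 2, 3, 5 and 7 had levels of 0.70, 3.57, 1.09 and 1.95 in log2(CPM), and BDE-47 1 had 1.06. The remaining 10 mice were listed at 0, so Fdps did not enter the fit over all genes. The difference in mean log2 level was -0.76 (SE 0.48), and it was -0.38 without vehicle 3.

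**Figure D2:**
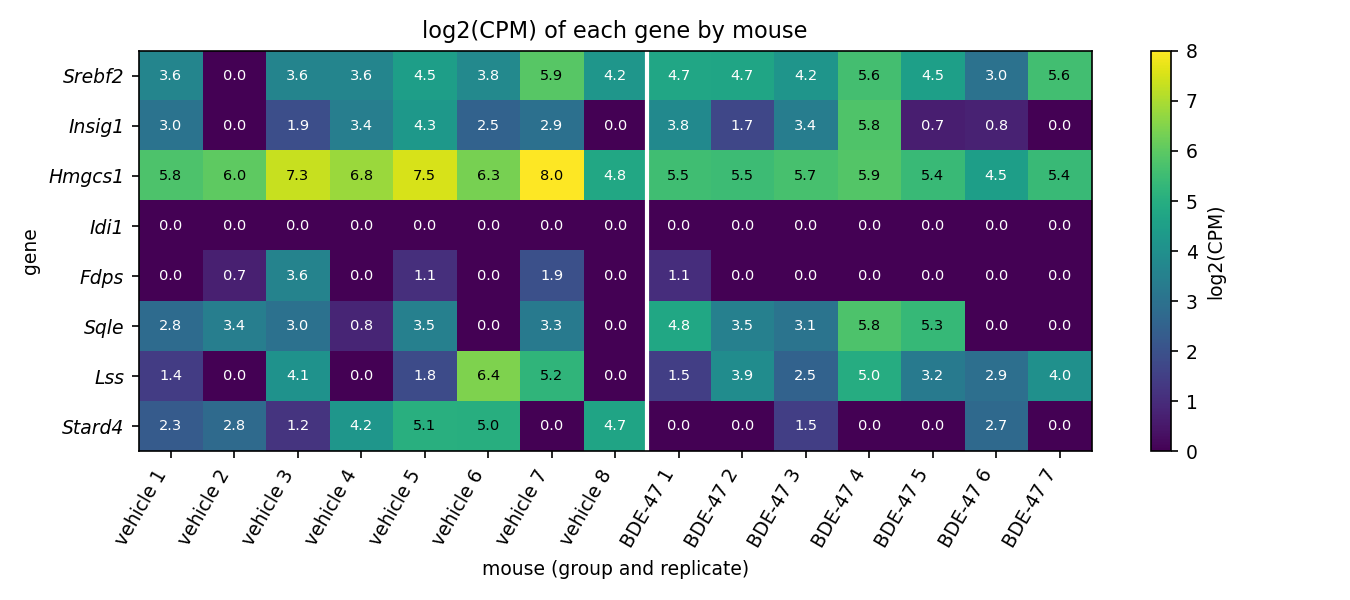
Heat map of the level in log2(CPM) of each gene (rows) in each mouse (columns; vehicle left of the white line, BDE-47 right of it), with the value rounded in each cell and 0 for under 1 CPM. Idi1 was listed at 0 in all 15 mice, Sqle was listed at 0 in vehicle 6, vehicle 8, BDE-47 6 and BDE-47 7, and Stard4 was listed at 0 in vehicle 7 and 5 BDE-47 mice.

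Sqle encodes squalene epoxidase, the first oxygen-requiring step and another control point of the pathway. Its lowest, median and highest levels in log2(CPM) were 0.00, 2.89 and 3.49 in vehicle mice and 0.00, 3.48 and 5.78 in BDE-47 mice. BDE-47 1, 4 and 5, at 4.75, 5.78 and 5.35, were above every vehicle mouse, while the other 4 lay within the vehicle range. The mean log2 level was higher by 1.10 (SE 1.06) in BDE-47 mice, 2.15-fold on this scale. The mice listed at 0 were vehicle 6, vehicle 8, BDE-47 6 and BDE-47 7, and 3 of those 4 were the libraries low in adipocyte and epithelial markers. Luminal markers had r = 0.66 with Sqle over 15 mice with group means removed and r = 0.14 over the 12 mice without these libraries. This was not particular to luminal markers. Over 15 mice r was 0.69 for myoepithelial, 0.51 for adipocyte and Schwann cell, and -0.50 for B cell and skeletal muscle markers. Over the 12, r was largest for sebocyte markers (0.52). The difference between groups in Sqle was 0.94 (SE 0.95) in the 12 mice, 0.40 when vehicle 6 and 8 alone were left out and 0.67 without BDE-47 4.

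Lss encodes lanosterol synthase, which closes the sterol rings. Its lowest, median and highest levels in log2(CPM) were 0.00, 1.62 and 6.44 in vehicle mice and 1.48, 3.25 and 4.95 in BDE-47 mice. Vehicle mice thus lay at both ends, with 3 of 8 listed at 0 and vehicle 6 and 7 above every BDE-47 mouse, whereas all 7 BDE-47 mice were above 1 CPM. The mean log2 level was higher by 0.92 (SE 1.00) in BDE-47 mice, but the mean CPM was lower, at 12.5 against 18.4 (log2 ratio -0.56). That lower mean CPM rested on vehicle 6, 1 of the libraries that stood apart. Without it the mean CPM of Lss was 8.65 in vehicle and 12.5 in BDE-47 mice (log2 ratio 0.53), and over the 12 mice it was 10.1 and 13.3 (log2 ratio 0.40). The difference in mean log2 level was 1.26 (SE 1.01) over the 12 mice, 1.50 without vehicle 6 alone and 0.58 without vehicle 2.

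Stard4 encodes a small soluble carrier with a START domain that moves cholesterol between membranes, toward the endoplasmic reticulum among others, and its transcription responds to SREBP2. In vehicle mice 1 to 8 its level in log2(CPM) was 2.30, 2.77, 1.20, 4.21, 5.06, 5.03, 0.00 and 4.67, and in BDE-47 mice 1 to 7 it was 0.00, 0.00, 1.49, 0.00, 0.00, 2.74 and 0.00. Thus 7 of 8 vehicle mice but 2 of 7 BDE-47 mice were above 1 CPM, 5 vehicle mice were above every BDE-47 mouse, and the groups overlapped through vehicle 1, 3 and 7. Where Stard4 was above 1 CPM it rested on 38 to 519 reads. The mean log2 level was lower by 5.87-fold (log2 difference -2.55, SE 0.79) in BDE-47 mice, on a scale that sets every value under 1 CPM to 1 CPM, and the mean CPM was 15.5 in vehicle and 1.36 in BDE-47 mice.

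Among the vehicle mice, vehicle 6 and 8 were among the 3 highest for Stard4, and BDE-47 6 had the highest of its group. Without these 3 libraries, Stard4 passed 1 CPM in 5 of the 6 vehicle and in 1 of the 6 BDE-47 animals left, and the log2 difference was -2.34 (SE 0.80). Vehicle 7, the mouse highest in Hmgcs1 and Srebf2, was the vehicle mouse listed at 0 for Stard4. With group means removed, Stard4 had r = 0.48 with the summed B cell markers and r = -0.69 with the myoepithelial markers over 15 mice. These were not particular, as luminal (-0.56), adipocyte (-0.55), Schwann cell (-0.45) and skeletal muscle markers (0.43) had like sizes of r. Over the 12 mice r was 0.15 with B cell and -0.41 with myoepithelial markers, and it was largest in size with sebocyte markers (0.46). The part of tissue content in the Stard4 difference was not tested.

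Of the 6 members in the fit over all genes, Sqle alone was higher by more than 2-fold in BDE-47 mice, where 13.0% of the 9511 genes fitted were, and Hmgcs1 and Stard4 were lower by more than 2-fold, where 13.2% of all genes were. As the members were chosen on this difference, nothing is read from those counts. Counting error was small beside the spread between mice: at the median number of reads it came to an SD of 0.05 in log2 for Hmgcs1 and 0.13 for Stard4, against 0.99 and 1.50 between the mice above 1 CPM. These errors cover counting only, since QuantSeq reads without molecular identifiers are not independent molecules.

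Hmgcs1 and Srebf2 differed in opposite directions, and their balance in each mouse was looked at after the values had been seen. Hmgcs1 minus Srebf2 in log2(CPM) was lowest at 0.62, median 2.82 and highest at 6.03 in vehicle mice, and -0.16, 0.82 and 1.48 in BDE-47 mice. Thus 7 of 8 vehicle mice were above the highest BDE-47 mouse, with vehicle 8, a library that stood apart, the exception. The vehicle value of 6.03 is that of vehicle 2, whose Srebf2 was listed at 0, so it is not a measured balance. Over the 12 mice, and with vehicle 2 left out, the balance ran from 2.06 to 3.73 in 5 vehicle mice and from -0.16 to 1.48 in 6 BDE-47 mice, with no overlap. That omission was made after the values were seen and takes out vehicle 8, the mouse that overlapped. How many other gene pairs part the groups in this way was not counted. The summed CPM of the member enzymes Hmgcs1, Fdps, Sqle and Lss had a median of 140.65 in vehicle (27.9 to 304.4) and 70.4 in BDE-47 mice (29.8 to 144.4). Other enzymes of the pathway were not in the sum. Hmgcs1 made up a median of 84.55% of that sum in vehicle (48.4 to 100%) and 63.2% in BDE-47 mice (40.5 to 78.0%), with overlap in both measures. The 100% is that of vehicle 8, whose Fdps, Sqle and Lss were listed at 0, so it is not a measured share. The overlap in share came from vehicle 6 at 48.4%. Over the 12 mice the share was 81.6 to 98.4% in vehicle and 40.5 to 78.0% in BDE-47 mice, which did not overlap. The sum, at 64.4 to 304.4 and 59.1 to 144.4 CPM, did overlap. Here too the omission was made after the values were seen, and it takes out vehicle 6, the mouse that overlapped in share. How many other shares part the groups in this way was not counted. As the balance, the sum and the share all include Hmgcs1, a member chosen on this difference, they are descriptions.

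**Figure D3:**
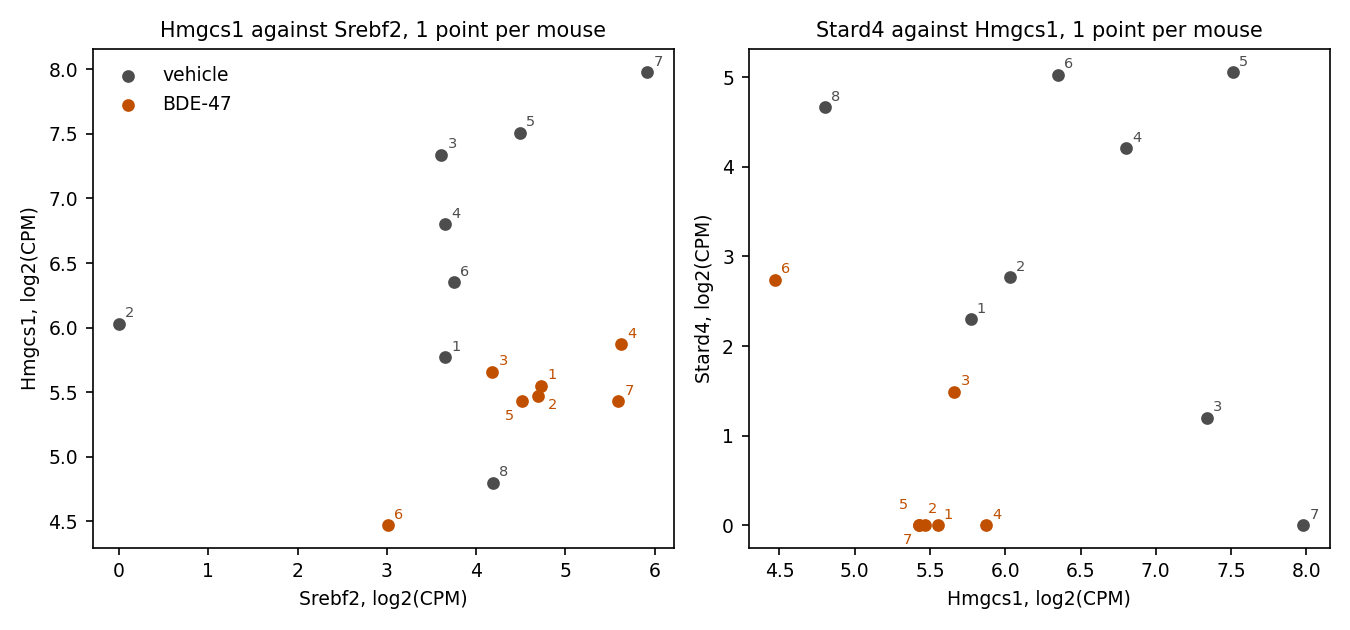
Left, Hmgcs1 against Srebf2, and right, Stard4 against Hmgcs1, both axes in log2(CPM), 1 point per mouse with its replicate number, grey for vehicle and orange for BDE-47; BDE-47 5 and 7 lie on the same point at the right. The BDE-47 mice had Srebf2 levels of 3.01 to 5.62 with Hmgcs1 at no more than 5.87, and vehicle 7 was highest for Hmgcs1 (7.98) with Stard4 listed at 0.

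Members that answer to 1 regulator can also be compared mouse by mouse within each group, which does not use the difference between groups. With group means removed, Pearson's r over 15 mice was positive for 15 of the 21 pairs and negative for 6, all of which included Stard4, with a range of -0.59 to 0.60 and a median of 0.19. The strongest by its two-sided permutation p was Insig1 with Hmgcs1 (r = 0.55, p = 0.0172, adjusted over 21 pairs 0.203, and rho = 0.62, permutation p = 0.0116, adjusted 0.171). Hmgcs1 with Sqle followed (r = 0.50, permutation p = 0.0259, adjusted 0.203, and rho = 0.51, permutation p = 0.0314, adjusted 0.181). Sqle with Stard4 had r = -0.53 (permutation p = 0.0291, adjusted 0.203) and rho = -0.41 (permutation p = 0.101, adjusted 0.38). Without the 2 mice farthest from the median of the first gene named, r was 0.55, 0.44 and -0.38 in turn. No pair passed the adjusted threshold by either measure.

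Without the 3 libraries that stood apart, 14 pairs were positive and 7 negative, 5 of them with Stard4, whose r then ran from -0.67 with Lss to 0.24 with Insig1. In these 12 mice r was 0.39 for Insig1 with Hmgcs1, 0.15 for Hmgcs1 with Sqle and -0.17 for Sqle with Stard4. Srebf2 with Hmgcs1 had r = 0.47 over 15 mice (permutation p = 0.15, adjusted 0.283) and 0.69 over 12. The number of genes above 1 CPM in a mouse had r of -0.30 to 0.13 with the 7 members (lowest adjusted permutation p = 0.887), and the closest relation by rank was that of Srebf2 (rho = -0.62, permutation p = 0.0231, adjusted 0.162).

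**Figure D4:**
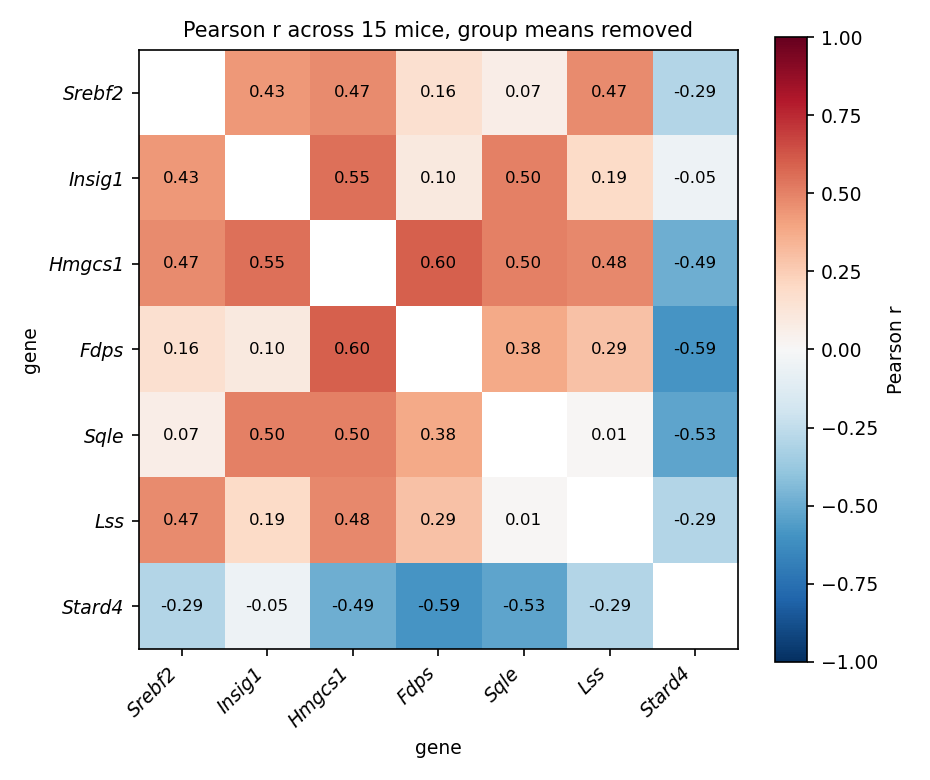
Pearson's r between each pair of 7 genes across 15 mice after removal of the group means (rows and columns are genes; red positive, blue negative, on a scale of -1 to 1). All 6 negative values, from -0.59 to -0.05, are in the Stard4 row and column, and Hmgcs1 with Fdps is highest at 0.60.

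Among the 9505 other genes fitted, those most like Stard4 over the 15 mice, with group means removed, were Tm6sf1 (r = 0.89), Stard7 (0.81), Eif3j2 (0.80), Sla (0.79) and Dok3 (0.78). Stard7 encodes another START-domain protein, a carrier of phosphatidylcholine to mitochondria, while Sla and Dok3 encode adaptors of leukocyte signalling. Among 60 fitted genes of the sterol pathway, the closest to Stard4 was Stard3nl at r = 0.54. Those most like the mean standardised level of the 6 other members above 1 CPM were Ahr (r = 0.91), Ccnc (0.87), Tgoln1 (0.86), Wdr73 (0.85) and Nectin4 (0.84), and the closest pathway gene was Sc5d, a late sterol desaturase, at 0.77. Ahr encodes the dioxin-responsive aryl hydrocarbon receptor. These are the highest of 9505 values and are given as a description over 15 mice. Over the 12 mice the same 5 genes had r of 0.69 to 0.88 with Stard4 and Stard3nl had 0.37, while the other 5 had r of 0.75 to 0.90 with the mean of the other members and Sc5d had 0.69.

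The remaining sterol pathway was read from 71 further genes in 7 lists, of which 60 were fitted. None had an adjusted p under 0.05 in limma, nor did any of the 9511 genes (0%, lowest adjusted p = 0.982), and 6 had an unadjusted p under 0.05, where 4.66% of all genes did. Of the 60, 22 were higher and 38 lower in BDE-47 mice, where 49.1% of all genes fitted were higher and 50.9% lower. Their median log2 difference was -0.30 against -0.02 over all genes fitted. The genes were not tested as a set, so nothing is read from this split or from those of the single lists. A total of 7 were higher and 8 lower by more than 2-fold, shares close to those of all genes. The limma and two-sided exact permutation tests below compare 7 with 8 mice, and the exact test cannot give less than 0.000155. Genes named below for a low limma p or a large difference were picked on this same comparison. Their exact p is not adjusted for that choice and is no separate support.

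Of 6 fitted mevalonate enzymes, 2 were higher and 4 lower. Acat2, the thiolase that supplies acetoacetyl-CoA at the step before Hmgcs1, had a median of 4.16 in vehicle (0.94 to 6.95) and 6.46 in BDE-47 mice (4.49 to 7.36), a difference of 1.64 (SE 0.71, adjusted p = 0.982, exact permutation p = 0.0733). The groups overlapped, and the difference did not pass the test.

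Of 11 sterol branch enzymes, 5 were higher and 6 lower. Fdft1, squalene synthase, which acts just before Sqle, had a difference of 0.35 (SE 1.05, exact permutation p = 0.791). Dhcr7, which acts late in the branch, had a difference of 1.55 (SE 0.98, exact permutation p = 0.12).

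Of 12 genes of SREBP processing, 3 were higher and 9 lower. Scap, the escort of SREBP2, had a median of 5.17 in vehicle (3.39 to 6.04) and 5.61 in BDE-47 mice (4.02 to 6.34), a difference of 0.37 (SE 0.59). Srebf1, the paralogue that governs fatty acid synthesis, differed by -0.03 (SE 0.60) and Insig2 by -0.40 (SE 0.92). Erlin2, a scaffold for protein degradation at the endoplasmic reticulum, had a difference of -1.97 (SE 0.96, exact permutation p = 0.0597). The escort and the paralogue thus differed by less than their standard errors.

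Of 8 fitted uptake genes, 4 were higher and 4 lower. Lipa, the lysosomal acid lipase that frees cholesterol from lipoprotein esters, had the lowest unadjusted p of the pathway. Its median was 4.60 in vehicle (3.53 to 6.21) and 2.92 in BDE-47 mice (0.00 to 4.72), with all 8 vehicle and 5 of 7 BDE-47 mice above 1 CPM (difference -2.47, SE 0.92, adjusted p = 0.982, exact permutation p = 0.00233 unadjusted). Tmem97, a sterol-responsive partner of NPC1, had a difference of 1.49 (SE 0.77, exact permutation p = 0.0685).

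**Figure D5:**
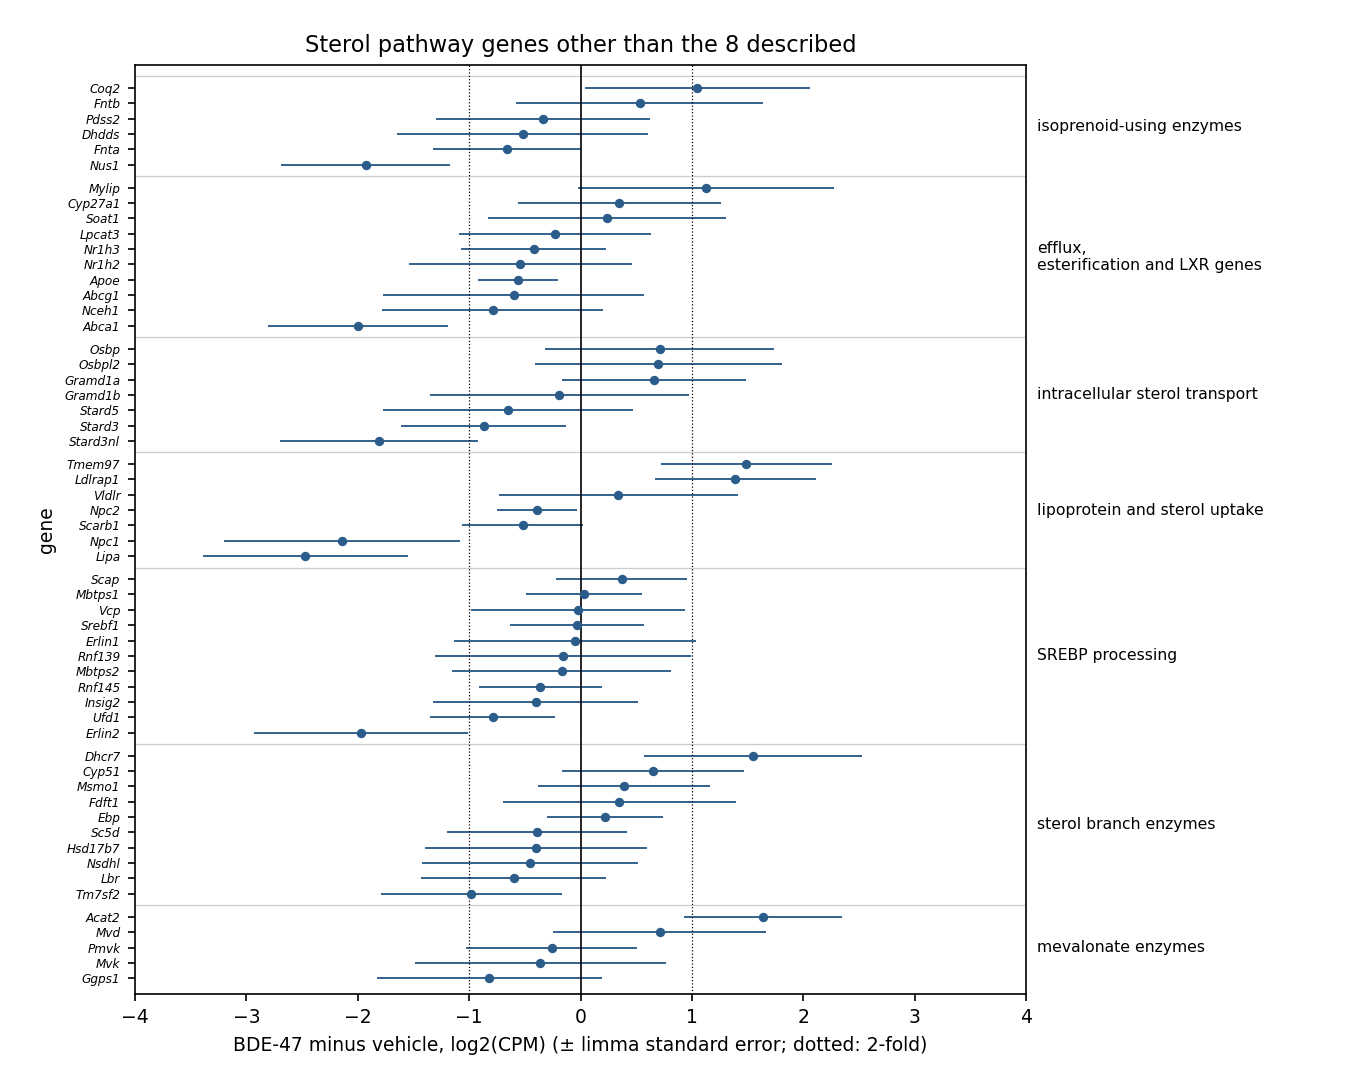
Difference in mean log2(CPM), BDE-47 minus vehicle (x axis), for 56 fitted sterol pathway genes outside the 8 described, grouped by list (y axis); bars are ± 1 limma standard error and dotted lines mark 2-fold. Differences ran both ways in every list, Lipa was lowest at -2.47 and Acat2 highest at 1.64, and none had an adjusted p under 0.05.

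Of 7 fitted genes of intracellular sterol transport, the role of Stard4, 3 were higher and 4 lower. Stard3nl, an endosomal tether related to STARD3, had a difference of -1.81 (SE 0.89, adjusted p = 0.982, exact permutation p = 0.034 unadjusted), with 6 of 8 vehicle and 2 of 7 BDE-47 mice above 1 CPM. Osbp, an oxysterol-binding exchanger, was at the other end with 0.71 (SE 1.03, exact permutation p = 0.438). The list had a median difference of -0.19.

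Of 10 fitted genes of efflux, esterification and LXR signalling, 3 were higher and 7 lower, with a median difference of -0.48. Abca1, the exporter of cholesterol to apolipoprotein A-I, had a median of 5.33 in vehicle (4.73 to 6.41) and 4.74 in BDE-47 mice (0.00 to 5.93), a difference of -2.00 (SE 0.81, adjusted p = 0.982, exact permutation p = 0.0298 unadjusted). All 8 vehicle and 5 of 7 BDE-47 mice were above 1 CPM for Abca1, and its log2 ratio of mean CPM was -1.01. Nr1h3, which encodes LXR alpha, differed by -0.42 (SE 0.65) and Mylip, an LXR target, by 1.13 (SE 1.15). Abcg1, Apoe and Lpcat3, further LXR targets of the list, had differences of -0.60 (SE 1.17), -0.56 (SE 0.36) and -0.23 (SE 0.86) and are given here after their values were seen.

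Of 6 fitted enzymes that use isoprenoids made by the pathway, 2 were higher and 4 lower. Nus1, a subunit of the dolichol-forming prenyltransferase, had a difference of -1.93 (SE 0.76, adjusted p = 0.982, exact permutation p = 0.0277 unadjusted). Coq2, which attaches the tail of ubiquinone, differed by 1.05 (SE 1.01, exact permutation p = 0.188).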

How the data were processed

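RNA from whole left 4th mammary tissue of 8 vehicle and 7 BDE-47 mice was sequenced as QuantSeq 3′ FWD libraries. The authors aligned the reads (STAR 2.5.3a and GRCm38, per the submitters' processing notes) and deposited log2 CPM values for each mouse, with values under 1 CPM at 0. The steps between low values gave 10060000 to 19580000 reads per library. With these totals, all the low and middling values checked (100%) came out as whole reads within 0.05. The highest values were not checked, and the totals were fitted to the values checked. Of 52636 entries, 110 repeats of a gene name were left out, keeping the one of highest mean. No xenograft covariate was used.

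Genes above 1 CPM in at least 7 mice (9511) were fitted with limma 3.58.1 in R 4.3.3 (trend, Benjamini-Hochberg adjustment, two-sided). Members were described by range, difference and the SE of unequal variances. Single pathway genes were also tested by exact permutation over 6435 regroupings, and correlations, with group means removed, by 100000 permutations within groups. The fit and the permutation test were tested on simulated data. Results were recomputed with other scales and scaling, filters, a covariate, a replicate block and without single mice. Leaving out vehicle 6 and 8 with BDE-47 6 was added after the data were seen. Promoter windows came from RefSeq (GRCm38.p6), with those of a single chromosome left out.

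The members and gene lists were chosen with earlier results of these data known. All members were named, with 6 fixed pathway genes, the genes of each list with an unadjusted p under 0.05, its largest positive and negative difference, and the 5 genes most like Stard4 or the other members. Some genes this rule would name, which the list counts include, are not reported here. Whether the mice came from separate cages or litters is not stated, so p-values measure the spread between these mice. Of the replicate numbers, 0 of 7 gave same-numbered mice a correlation over 0.1. As the highest for any of vehicle 1 to 7 with any BDE-47 mouse was 0.053, this does not exclude a pairing. The mice were compared unpaired in the main fit. Python 3.11.15, numpy 2.4.6, pandas 2.3.3, scipy 1.17.1 and matplotlib 3.10.9 were used.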

Additional observations from a re-analysis of the deposited data

Results flagged for a closer look

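Within groups, a mouse was picked out where its gap to the nearest other mouse took up more of the group's range than Dixon's 95% critical value allows. Of 46 groups of values for members and named pathway genes, 4 held such a mouse. The chance rate of about 1 in 20 holds for normally distributed values. Many values here are listed at 0, so the count is not set against that rate. Srebf2 was listed at 0.00 in vehicle 2, with the next vehicle mouse at 3.61. Hmgcs1 was lowest at 4.47 in BDE-47 6, with the next at 5.43, and that library held the skeletal muscle markers. Fdps was at 1.06 in BDE-47 1, with the others of its group at 0.00. Among pathway genes, Tmem97 was at 2.81 in vehicle 7, with the next at 0.81. All levels are in log2(CPM).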

How the results depend on the processing

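Over 23 alternatives, the log2 differences of Srebf2, Hmgcs1, Fdps, Sqle and Stard4 kept their sign, that of Insig1 changed sign in 10, and that of Lss changed in 1, the ratio of mean CPM (-0.56, but 0.53 without vehicle 6). Of the named pathway genes, Srebf1 changed sign in 8, Insig2 in 3 and Fdft1 in 5. Among the 23, the replicate block and the omission of vehicle 8 give the same differences, so they are not separate checks. With log2(CPM + 0.1), which widens the gap between a listed 0 and 1 CPM, Fdps was at -1.96, Stard4 at -4.52, Tmem97 at 3.04 and Stard3nl at -3.36, and as a ratio of mean CPM Fdps was at -3.03. Leaving out single mice gave 0.44 to 1.29 for Srebf2, -0.54 to 0.43 for Insig1, -1.42 to -0.96 for Hmgcs1, -0.91 to -0.38 for Fdps, 0.67 to 1.64 for Sqle, 0.58 to 1.50 for Lss and -3.00 to -2.28 for Stard4. With median-of-ratios size factors the median of all genes was 0.06, and 56.2% of the genes past 2-fold were higher, against 49.6%. With the number of genes above 1 CPM as a covariate they were -0.09 and 43%, with 1105 genes higher and 1467 lower. Genes higher past 2-fold numbered 1238 with the deposited values, 2224 with log2(CPM + 0.1) and 124 among genes above 1 CPM in every mouse, where 133 were lower (1259 with the deposited values) and 115 had an unadjusted p under 0.05 (443 with the main filter).

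The replicate block leaves out vehicle 8, and its differences equal those without that mouse alone. They were 1.04 for Srebf2, -0.28 for Insig1, -1.42 for Hmgcs1, -0.89 for Fdps, 0.80 for Sqle, 0.58 for Lss and -2.34 for Stard4. With the block, limma called 0 genes at an adjusted p under 0.05 (lowest 0.993). Same-numbered mice had correlations of -0.018 to 0.053, and 3 of 7 correlated best with their own number.

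The limits are the listed zeros, which touch every member but Hmgcs1, tissue content that differs between mice, and 7 and 8 mice. In limma, 0 genes had an adjusted p under 0.05 with all mice, and 2 did without vehicle 6, vehicle 8 and BDE-47 6.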

Other observations

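With vehicle 6, vehicle 8 and BDE-47 6 left out, a choice made after the data were seen, 2 of all fitted genes had an adjusted limma p under 0.05 in 6 against 6 mice, and neither belongs to the sterol pathway. Wfdc18, a secreted whey acidic protein family member of the mammary epithelium, had a mean log2(CPM) of 7.17 in vehicle and 8.94 in BDE-47 mice (difference 1.78, SE 0.34, adjusted p = 0.0312), and over all 15 mice the difference was 2.18 (adjusted p = 0.982). Chchd2, which encodes a mitochondrial intermembrane space protein, had means of 9.61 and 8.13 (difference -1.48, SE 0.30, adjusted p = 0.0494), and -1.06 over all 15 mice (adjusted p = 0.982). Wfdc18 is also 1 of the 8 luminal markers used here.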
